A study of Mus musculus with 10 samples.

Results

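The genes Nnt, Wdfy1, Entpd4, Ide and Cyfip2, known to differ between the C57BL/6J and C57BL/6N substrains of the laboratory mouse, were followed in the hippocampus of Dp1Yey mice and their control littermates. A gene entered when a probe set on the array was annotated to its symbol and to no other. All 5 were found, each on 1 probe set, among 19938 genes measured on Affymetrix Mouse Gene 1.0 ST arrays. Values are log2 expression after robust multi-array averaging (RMA). Dp1Yey mice carry an extra copy of the part of mouse chromosome 16 that runs from Lipi to Zbtb21, and the controls carry the usual pair of copies. Both groups held 5 males aged 16 weeks, with 1 array for the left and right hippocampus of each mouse, and neither group received a treatment. The labels give C57BL/6N as the background of all 10 mice, whereas the study's methods describe repeated backcrossing towards C57BL/6J. The question was whether the genes that mark the substrains were uniform from mouse to mouse and balanced between the groups. No array of a mouse of known substrain was used here, so a level could not be assigned to an allele.

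The C57BL/6J and C57BL/6N substrains descend from the same inbred stock, were bred apart for many generations and have gathered separate mutations. Nnt encodes the nicotinamide nucleotide transhydrogenase of the inner mitochondrial membrane, which makes NADPH for the removal of peroxides, and C57BL/6J mice lack several of its exons. Cyfip2 encodes a subunit of the WAVE complex that controls actin branching at synapses, and C57BL/6N mice carry a missense change in it. Ide encodes insulin-degrading enzyme, a metallopeptidase that also cleaves amyloid beta. Entpd4 encodes a nucleoside diphosphatase of the Golgi and lysosomal membranes, and Wdfy1 a FYVE-domain protein of early endosomes that takes part in Toll-like receptor signalling. In a bulk sample such as a whole hippocampus, fewer cells of a type and less RNA per cell cannot be told apart.

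None of the 5 genes lies in the duplicated interval. On the GRCm38.p6 assembly, also called mm10, Wdfy1 (Entrez 69368) spans bases 79702262 to 79776143 of chromosome 1 and Cyfip2 (Entrez 76884) bases 46193849 to 46312859 of chromosome 11. Nnt (Entrez 18115) spans 119335527 to 119409257 of chromosome 13, Entpd4 (Entrez 67464) 69337151 to 69366742 of chromosome 14 and Ide (Entrez 15925) 37268743 to 37334544 of chromosome 19. A further gene named Entpd4b starts 188658 bases after the end of Entpd4 and had 0 single-symbol probe sets. Whether the Entpd4 probes also read Entpd4b was not tested.

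RefSeq start-site windows are shown for Ide, the member of widest spread in the values that follow, and for Entpd4b, the neighbour that shares the name of Entpd4. The 250 bases before each gene's start are written 5′ to 3′ from the RefSeq table (GRCm38.p6), with every CG dinucleotide in capitals. CG reads the same on both strands, and its matches do not overlap. Ide lies on the minus strand at chr19:37334545-37334794 and Entpd4b on the plus strand at chr14:69555151-69555400.
Ide: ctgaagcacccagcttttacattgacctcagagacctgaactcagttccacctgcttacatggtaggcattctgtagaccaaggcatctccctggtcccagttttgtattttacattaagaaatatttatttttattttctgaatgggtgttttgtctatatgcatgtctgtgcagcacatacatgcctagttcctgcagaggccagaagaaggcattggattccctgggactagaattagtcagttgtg
Entpd4b: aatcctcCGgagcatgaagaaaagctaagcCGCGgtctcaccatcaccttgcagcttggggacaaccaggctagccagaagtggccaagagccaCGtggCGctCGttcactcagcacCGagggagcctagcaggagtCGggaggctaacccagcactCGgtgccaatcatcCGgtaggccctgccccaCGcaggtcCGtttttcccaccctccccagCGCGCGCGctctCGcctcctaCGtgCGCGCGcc
The Ide window held 0 CG and 42.8% G or C. The Entpd4b window held 21 CG. Over all 32851 windows the median was 6, 16.3% held at least 21, and 7.87% held 0. The arrays carry no information on the bases themselves, and the windows come from a C57BL/6J genome.

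The libraries matched their labels. The 97 genes of the interval that lay above background were 1.22-fold higher in Dp1Yey (8.39 to 8.43 against 8.11 to 8.15 as array means of log2 values, exact permutation p = 0.00794, two-sided, n = 5 each). Olfactory receptor genes, largely silent in brain, set the background: 90% of 1027 such genes averaged under 5.44, and 15193 genes exceeded it, the 5 substrain genes among them. All 6 measured markers of hippocampal neurons lay well above it, with array means between 11.6 and 11.7. The 4 choroid plexus markers varied widely, with array means of 7.31 to 8.61 in Dp1Yey and 7.57 to 9.88 in control mice. Control replicate 2 had the highest array median, at 6.44 against 6.31 to 6.39 for the other 9 arrays.

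**Figure D1:**
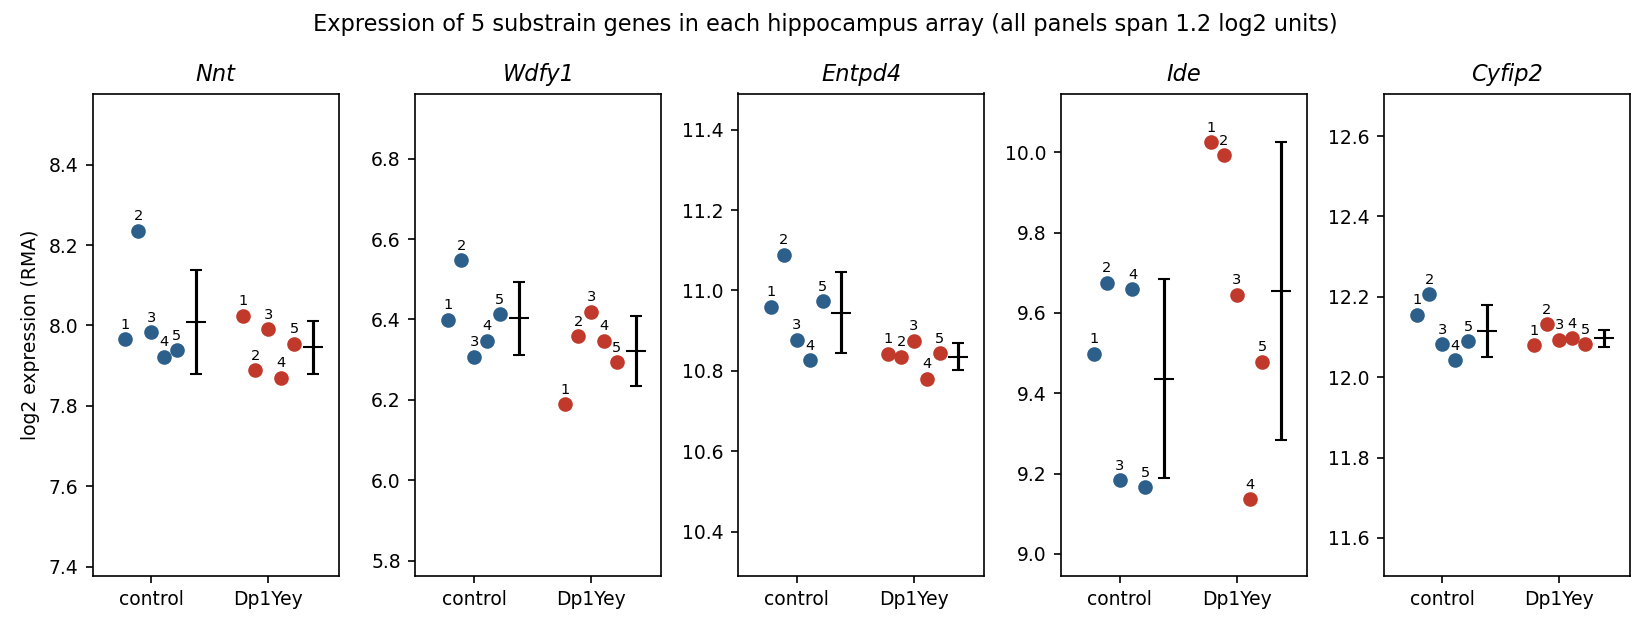
Log2 expression (RMA) of the 5 genes in each of the 5 control (blue) and 5 Dp1Yey (red) arrays, with replicate numbers beside the points and the group mean ± SD as black bars. All panels span the same 1.2 log2 units, so the Ide points, from 9.14 to 10.02, can be compared with the narrow Cyfip2 points, from 12.04 to 12.21.

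Nnt stood at 8.02, 7.89, 7.99, 7.87 and 7.95 in Dp1Yey replicates 1 to 5 and at 7.97, 8.24, 7.98, 7.92 and 7.94 in control replicates 1 to 5. The other 9 arrays lay within a narrow band shared by both groups, and control replicate 2 lay above all of them by 0.21. Dp1Yey mice averaged 7.95 ± 0.065 and their littermates 8.01 ± 0.13 (SD, n = 5 per group). The fold was 0.957 (95% CI 0.876 to 1.05, adjusted p = 0.550, limma with Benjamini-Hochberg adjustment over all 19938 genes). Without control replicate 2 the SD within groups fell from 0.10 to 0.053 and the log2 difference went from -0.063 to -0.0065. Probe positions were not used here, so whether the Nnt probes lie in the exons that C57BL/6J mice lack was not tested.

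Cyfip2 was the steadiest of the 5. It stood at 12.08, 12.13, 12.09, 12.10 and 12.08 in Dp1Yey mice and at 12.16, 12.21, 12.08, 12.04 and 12.09 in control mice, in the order of the replicates. All Dp1Yey arrays lay inside the range of the controls, and the 10 arrays spanned 1.12-fold. The fold between the groups was 0.987 (95% CI 0.935 to 1.04, adjusted p = 0.791, limma), and the log2 difference of -0.018 turned to 0.028 with median centring of the arrays.

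Wdfy1 stood at 6.19, 6.36, 6.42, 6.35 and 6.29 in Dp1Yey mice and at 6.40, 6.55, 6.31, 6.35 and 6.41 in control mice. Dp1Yey replicate 1 was the lowest array and control replicate 2 the highest, and the others intermingled. The fold was 0.945 (95% CI 0.873 to 1.02, adjusted p = 0.394, limma). The log2 difference of -0.081 was -0.045 without control replicate 2, -0.048 without Dp1Yey replicate 1, -0.0345 with median centring and -0.0315 with quantile normalisation.

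Entpd4 had the smallest p of the 5. It stood at 10.84, 10.84, 10.87, 10.78 and 10.84 in Dp1Yey mice and at 10.96, 11.09, 10.88, 10.83 and 10.97 in control mice. All 5 Dp1Yey arrays lay below the control mean of 10.95 ± 0.10 (SD, n = 5), and the groups overlapped through control replicate 4. The fold was 0.927 (95% CI 0.864 to 0.994). Its p of 0.0355 before adjustment became 0.225 after it (limma), so Entpd4 did not pass over all genes. The log2 difference of -0.11 was -0.063 with median centring and -0.074 without control replicate 2, the array of highest median.

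Ide had the widest range of the 5. It stood at 10.02, 9.99, 9.65, 9.14 and 9.48 in Dp1Yey mice and at 9.50, 9.68, 9.18, 9.66 and 9.17 in control mice, a range of 1.85-fold over the 10 arrays. In order of level, Dp1Yey replicates 1 and 2 stood at the top, 0.32 above the next array. Control replicates 2, 4 and 1 and Dp1Yey replicates 3 and 5 followed between 9.68 and 9.48. Control replicates 3 and 5 and Dp1Yey replicate 4 came last, 0.29 below the others and between 9.14 and 9.18. High, middle and low arrays thus occurred among the Dp1Yey mice, and middle and low arrays among the controls. Dp1Yey mice averaged 9.66 ± 0.37 and their littermates 9.44 ± 0.25 (SD, n = 5 per group), a fold of 1.16 whose interval ran from 0.909 to 1.49 (adjusted p = 0.458, limma). Leaving out single arrays moved the log2 difference of 0.22 to between 0.13, without Dp1Yey replicate 1 or 2, and 0.35, without Dp1Yey replicate 4.

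Of the 5 genes, 0 passed limma at an adjusted p under 0.05, where 0.797% of all genes passed (0.687% higher and 0.11% lower in Dp1Yey). Entpd4 was the 1 gene with an unadjusted p under 0.05, as 19.5% of all genes had, and 0 passed a statistic on the ranks of fold changes, which 3.46% of all genes passed. In 0 of the 5 the groups failed to overlap, against 4.86% of all genes. The difference was below 0 in 4 genes and above 0 in Ide, with a median of -0.063 beside -0.015 over all genes. Without control replicate 2 the median difference of the 5 was -0.0065 and Cyfip2 turned to 0.0042, so that 3 genes lay below 0. These intervals leave room for differences of the sizes they span, most of all for Ide.

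The spread within groups was widest in Ide, given here as a description with no test. Its SD within groups was 0.32, wider than that of 99.6% of the 15193 genes above background and the 66th widest of them, where the median gene had 0.083. Nnt (0.10) was wider than 69.9% of those genes, Wdfy1 (0.089) than 56.6%, Entpd4 (0.075) than 40.6% and Cyfip2 (0.048) than 10.96%. The Ide spread did not rest on 1 array: leaving out each in turn gave 0.26 to 0.34, always wider than at least 98.87% of genes. Median centring gave 0.30. Among the 10 genes of widest spread were the choroid plexus genes Ttr, Kcnj13 and Clic6, named here after their values were seen. The others of the 10 were Lcn2, Glp1r, Snora3, Igha, Zic1, Sostdc1 and Calb2. The mean of the choroid plexus markers was 7.92 and 7.31 in the arrays of highest Ide, and 7.57, 9.62 and 8.61 in the arrays of lowest Ide. In the arrays between, in falling order of Ide, it was 7.79, 9.50, 7.41, 9.88 and 8.39. The part of choroid plexus content in the Ide spread was not tested.

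**Figure D2:**
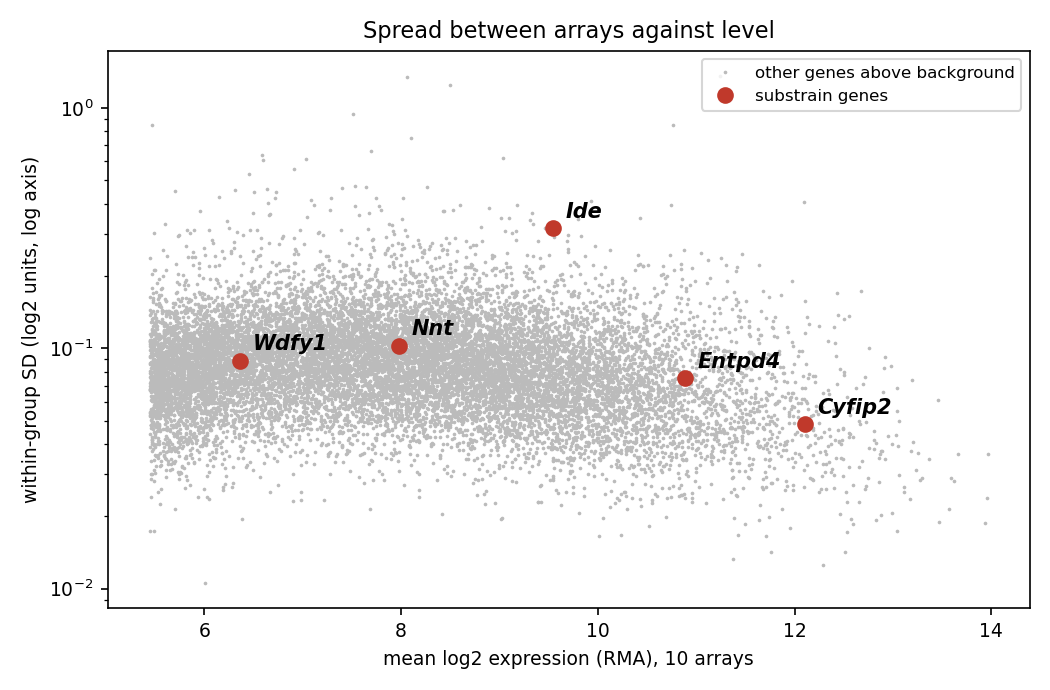
SD within groups (log2 units, log axis) against mean log2 expression over the 10 arrays for the 15193 genes above background (grey), with the substrain genes in red. Ide, at an SD of 0.32, lies on the upper edge of the cloud, and Nnt, Wdfy1, Entpd4 and Cyfip2, at 0.10, 0.089, 0.075 and 0.048, lie inside it.

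Linked genes are inherited together, so genes that start within 5 Mb of each member were examined. Around Ide, 71 genes lay above background, and 1 of them, the oligodendrocyte gene Opalin, varied more than Ide (SD 0.34 against a median of 0.085). The Opalin deviations had a correlation of 0.14 with those of Ide over the 10 arrays once group means were removed. The median correlation of the 71 neighbours with Ide was -0.010. In order of distance, the genes nearest to Ide had 0.20 (Marchf5), 0.53 (Hhex), -0.014 (Cpeb3), -0.13 (Exoc6), 0.52 (Btaf1) and 0.42 (Fgfbp3). These correlations are given without a test, and what lies behind them was not tested. By limma 0 of the 71 passed, although 18 had an unadjusted p under 0.05, where 19.5% of all genes had one, and the rank statistic called 9 of them, beside 3.46% of all genes. The smallest p belonged to the lipase gene Lipo3, at 1.28-fold (95% CI 1.14 to 1.43, adjusted p = 0.0544, limma). Lipo3 passed in several alternatives, among them median centring (adjusted p = 0.0308). The largest difference of the 71 was in Ifit3, at 0.61 on the log2 scale (adjusted p = 0.0623, limma). Ifit1 and Ifit2, also in this window, differed by 0.31 and 0.21 (adjusted p = 0.148 and 0.103). These interferon-induced genes were named after their values were seen, and the median difference of the 71 was 0.025. What lies behind the counts near Ide was not tested.

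Near Nnt and Entpd4, 0 of 19 and 0 of 66 genes passed limma, with 2 and 16 at an unadjusted p under 0.05. The rank statistic called 0 and 0 of them. The smallest p near Nnt belonged to the zinc finger gene Zfp131, at 1.13-fold without overlap between the groups (adjusted p = 0.117), and near Entpd4 to Ephx2, a soluble epoxide hydrolase, at 1.13-fold (adjusted p = 0.100), which passed with median centring (0.0368). Near Wdfy1 1 of 54 genes passed limma and 3 the rank statistic, and 17 had an unadjusted p under 0.05. That gene was Irs1, an adaptor of the insulin receptor, which stood at 7.83, 7.67, 7.71, 7.74 and 7.66 in Dp1Yey mice and at 8.05, 7.88, 7.89, 7.96 and 7.99 in control mice. The groups did not overlap, and the level of Irs1 fell in Dp1Yey mice, at 0.852-fold (limma, adjusted p = 0.0337, 95% CI 0.797 to 0.910). The call was lost without any Dp1Yey array other than replicate 1 and without control replicates 1, 4 or 5 (adjusted p 0.0575 to 0.101), with median centring (0.0814) and with the mean of its probe sets (0.0788, log2 difference -0.13 in place of -0.23). It was also lost in both settings added after seeing the data, without control replicates 1 and 2 together (0.0571) and with the interquartile range as covariate (0.122). Near Cyfip2 1 of 60 passed limma and 5 the rank statistic, with 17 under 0.05 before adjustment. The limma call was the interferon-inducible GTPase gene Irgm1 (1.32-fold, adjusted p = 0.0166), without overlap between the groups. Leaving out Dp1Yey replicates 1 or 3 (0.0513 and 0.0558) or control replicate 4 (0.0557) ended that call, as did the interquartile range covariate (0.254). Over all genes above background 1.02% passed limma. Over all genes measured, 19.5% had an unadjusted p under 0.05 and 3.46% passed the rank statistic.

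**Figure D3:**
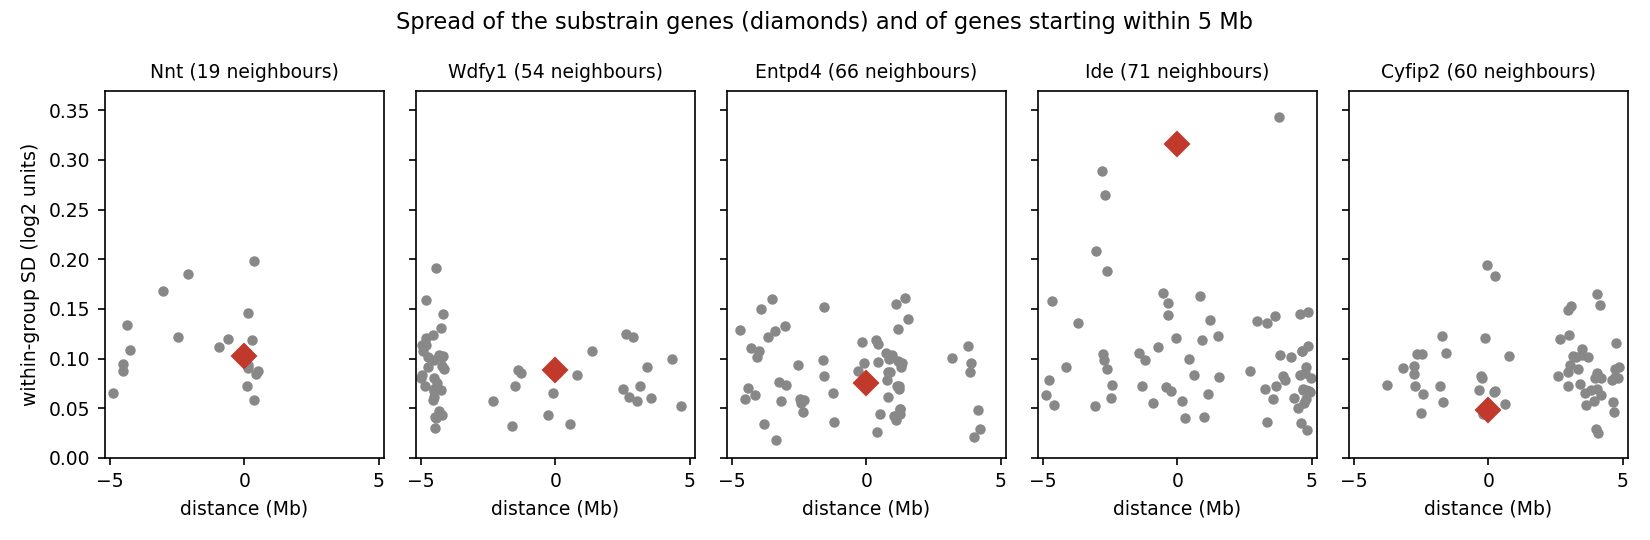
SD within groups (log2 units) of each substrain gene (red diamond) and of the genes above background that start within 5 Mb of it (grey), against the distance of their starts in Mb. Ide, at 0.32, stands above all of its 71 neighbours but Opalin at 0.34, Nnt, Wdfy1 and Entpd4 lie among theirs, and Cyfip2 lies below 55 of its 60.

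The genes whose deviations from the group means were most like those of each member over the 10 arrays were on other chromosomes in 14 of 15 cases. The closest to Nnt were Telo2, Lrrc24 and Efcab15 (Pearson r of 0.99, 0.98 and 0.96), and the closest to Wdfy1 were Galnt2, Hkdc1 and Ip6k1 (0.95, 0.95 and 0.92). The closest to Entpd4 were Rfc5, Rhbdd3 and Sidt2 (0.99, 0.99 and 0.98), and to Cyfip2 Aplp1, Slitrk5 and Trim65 (0.98, 0.98 and 0.97). For Ide they were Cd79b, Pdcd7 and Tenm4 (0.93, 0.93 and 0.92). These are the highest over the 15193 genes above background, over 10 arrays that share array-wide differences, and carry no test.

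Between the members, 10 pairs were compared on the same deviations with exact permutation tests over all 14400 pairings within the groups, two-sided. The highest correlation was between Entpd4 and Cyfip2 (r = 0.81, exact p = 0.0458, adjusted p = 0.114 over the 10 pairs, and rho = 0.56, exact p = 0.210, adjusted p = 0.483). Without the 2 arrays farthest from the median of Entpd4 r was 0.23, and without control replicate 2 it was 0.56. Nnt and Entpd4 followed (r = 0.79, exact p = 0.0164, adjusted p = 0.114, and rho = 0.61, exact p = 0.0889, adjusted p = 0.296), with r = 0.55 without the 2 arrays farthest in Nnt and r = 0.41 without control replicate 2. The highest rho was between Wdfy1 and Cyfip2 (0.71, exact p = 0.0156, adjusted p = 0.156, and r = 0.68, exact p = 0.0308, adjusted p = 0.114). There r was 0.53 without the 2 arrays farthest in Wdfy1 and 0.40 without control replicate 2. None of the 10 pairs passed after adjustment. The 4 pairs with Ide lay between -0.012 and 0.40 (exact p 0.221 to 0.974, adjusted p 0.368 to 0.974). Nnt, Wdfy1, Entpd4 and Cyfip2 all had their highest value in control replicate 2, the array of highest median, and the part of the array in this was not tested.

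Other genes with a known variant in a C57BL/6 substrain were read in the same way. Of 6 listed, 4 were measured on a single-symbol probe set and the others were not analysed here. Of these, 2 lay above background, Gabra2 and Dock2, and 0 of the 2 passed limma, had an unadjusted p under 0.05 or passed the rank statistic. Over all genes 0.797% passed limma, 19.5% had an unadjusted p under 0.05 and 3.46% passed the rank statistic, so 2 genes say little. Gabra2, a GABA type A receptor subunit that an intronic deletion lowers in the brain of C57BL/6J mice, stood at 10.34, 10.12, 10.14, 10.31 and 9.90 in Dp1Yey mice and at 10.23, 10.39, 10.33, 10.32 and 10.27 in control mice. Dp1Yey replicate 5 was the lowest array, the Dp1Yey mice were the more variable group, and the fold was 0.904 (95% CI 0.810 to 1.01, adjusted p = 0.285, limma). Without Dp1Yey replicate 5 the log2 difference of -0.15 was -0.080. Dock2, a guanine nucleotide exchange factor of immune cells that is altered in some C57BL/6N colonies, lay between 6.12 and 6.40 in Dp1Yey and between 6.17 and 6.38 in control mice (0.971-fold, 95% CI 0.892 to 1.06), and its log2 difference of -0.043 was -0.0032 without Dp1Yey replicate 4 and turned to 0.0062 with quantile normalisation and 0.0038 with median centring. The retinal polarity gene Crb1, in which C57BL/6N mice carry the rd8 mutation, lay below background on average, at 5.21 to 5.38 and 5.25 to 5.33. Mmrn1, deleted in some C57BL/6J colonies, also lay below it, at 4.38 to 4.48 and 4.45 to 4.50, so neither gave a measurable level here.

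The partners of each protein were read from lists chosen for their role. Around Nnt, 10 of 11 genes of mitochondrial NADPH supply and peroxide removal were measured, 0 passed limma, 2 had an unadjusted p under 0.05 and 1, Prdx3, passed the rank statistic. Over all genes 0.797% passed limma, 19.5% had an unadjusted p under 0.05 and 3.46% passed the rank statistic. The median difference of the 10 was 0.056 on the log2 scale. The mitochondrial peroxiredoxin gene Prdx3 was at 1.19-fold (95% CI 1.06 to 1.34, adjusted p = 0.136) and the glutathione peroxidase gene Gpx1 at 1.18-fold (1.05 to 1.32, adjusted p = 0.135), both by limma. In Prdx3 the 5 Dp1Yey arrays lay between 9.80 and 9.92 and the controls between 9.29, in replicate 2, and 9.83.

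Around Cyfip2, 10 of 11 genes of the WAVE complex and of its FMRP partners were measured and 0 passed limma (2 at an unadjusted p under 0.05, 0 by the rank statistic, median difference 0.059). For this list and the next 2, the shares over all genes were 0.797% by limma, 19.5% unadjusted and 3.46% by the rank statistic. The WAVE protein genes Wasf3 and Wasf2 were both at 1.12-fold (adjusted p = 0.0965 and 0.186, limma). Around Ide, 0 of 8 related peptidases passed (2 unadjusted, 0 by the rank statistic, median -0.0018), with the endothelin-converting enzyme gene Ece2 at 1.10-fold (adjusted p = 0.200) and the neurolysin gene Nln at 1.10-fold (0.235). The Nln log2 difference of 0.14 was 0.080 without control replicate 1, and that of Ece2, also 0.14, was 0.066 as the mean of its probe sets. In a setting chosen after seeing the data, without control replicates 1 and 2, Ece2 passed (0.0471). Around Entpd4, 0 of 8 nucleotidases passed (2 unadjusted, 0 by the rank statistic, median -0.032). Entpd3 was at 0.908-fold (adjusted p = 0.203), and Entpd1, the CD39 ecto-enzyme of microglia and vessels, at 1.12-fold (0.245).

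Around Wdfy1, 1 of 10 genes of FYVE proteins and Toll-like receptor signalling passed limma as higher in Dp1Yey, where 0.687% of all genes did. Of the 10, 3 had an unadjusted p under 0.05 and 1 passed the rank statistic, beside 19.5% and 3.46% of all genes. Tlr3, the endosomal receptor for double-stranded RNA, stood at 8.45, 8.43, 8.37, 8.34 and 8.34 in Dp1Yey mice and at 8.15, 8.05, 8.12, 8.17 and 8.27 in control mice. The groups did not overlap, and Tlr3 rose 1.18-fold (95% CI 1.10 to 1.26, adjusted p = 0.0302, limma). The call was lost without Dp1Yey replicates 1, 2 or 3 (0.0905, 0.0843 and 0.0804), without control replicates 1 or 4 (0.0547 and 0.0677) and, in settings chosen after seeing the data, without control replicates 1 and 2 (0.0909) or with the covariate for interquartile range (0.364, log2 difference 0.16 in place of 0.23). The planned block for the replicate number also ended the Tlr3 call (limma, adjusted p = 0.114). Tlr4, the receptor for bacterial lipopolysaccharide, lay below background in all 10 arrays.

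**Figure D4:**
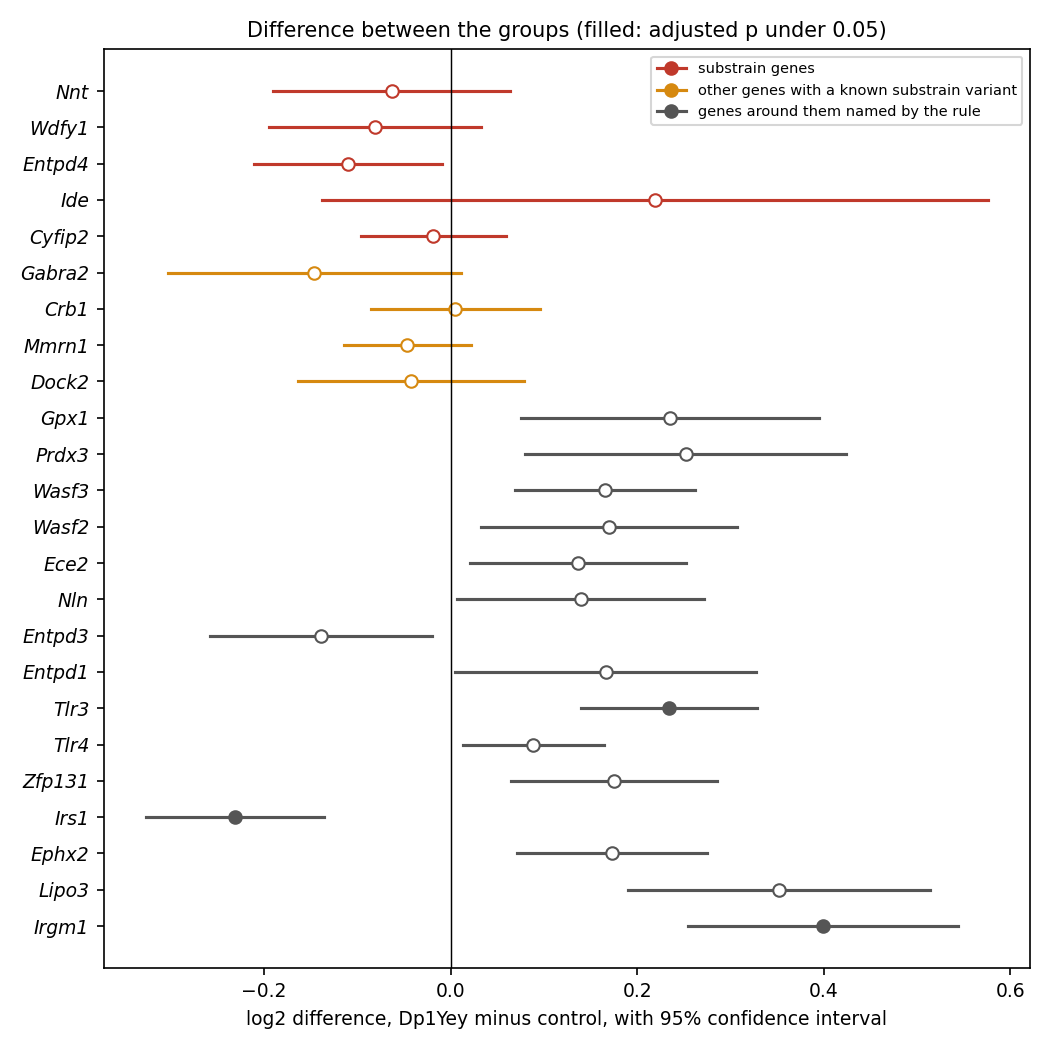
Log2 difference between 5 Dp1Yey and 5 control arrays, with 95% confidence intervals from limma, for the substrain genes (red), the other genes with a known substrain variant (orange) and the genes around them named by the rule (grey). Crb1, Mmrn1 and Tlr4 lay below background. Filled points passed an adjusted p of 0.05, which Tlr3, Irs1 and Irgm1 did, and Ide at 0.22 has the widest interval.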

How the data were processed

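Hippocampal RNA of 5 Dp1Yey and 5 control males was hybridised to Affymetrix Mouse Gene 1.0 ST arrays. The authors deposited log2 values made by RMA, which corrects background, normalises quantiles across arrays and summarises probes to 1 value per probe set. RMA, limma and the mm10 build are named in the processing notes of the submitters. The set of arrays normalised in 1 run is unknown here, and scanner files were not used. Of 35556 probe sets, 21789 were annotated to 1 symbol, 1621 to several and 12146 had no entry in the platform annotation. Symbols were updated through Entrez identifiers. Each gene was represented by its brightest single-symbol probe set, which left 19938 genes, 19855 of them in RefSeq of GRCm38.p6.

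Groups were compared with limma 3.58.1 in R 4.3.3, two-sided, with Benjamini-Hochberg adjustment over all 19938 genes and a threshold of 0.05. The code was tested on simulated data. Spread was the SD within groups. Arrays give no read depth, and their number limits the precision. All members and measured genes of the substrain list were named, with the list genes and neighbours of smallest p (at most 2 of a list, 1 near each member) or any that passed, and the 3 genes most like each member. The members and lists were chosen with earlier results of these data known. The alternatives were quantile normalisation, median centring, a filter at the background floor, the mean of a gene's probe sets, all single-symbol probe sets, array weights, limma's intensity trend and robust prior, a block for the replicate number, each array left out, other windows around the members, and a rank statistic after the study's method. That statistic took 25 Dp1Yey-to-control array pairs, ranked genes by fold change in each, averaged the ranks after trimming (share 0.25 at either end) and took the 0.025 and 0.975 tails. Added after seeing the data were a covariate for each array's interquartile range and a fit that omitted control replicates 1 and 2.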

Additional observations from a re-analysis of the deposited data

Results flagged for a closer look

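Among 24 groups of 5 values examined, 2 held an array far from the others by Dixon's test at the 95% level, where chance alone would give about 1 in 20. Nnt was 8.24 in control replicate 2, and the nearest control array stood at 7.98. Dock2 was 6.17 in control replicate 4, and the nearest control array stood at 6.34.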

How the results depend on the processing

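None of the 5 substrain genes passed in any alternative, the rank statistic included, and Ide, Entpd4 and Wdfy1 kept their direction in all of them. Cyfip2, whose difference was -0.018, reversed with median centring (0.0281), array weights (0.0030), without control replicate 2 (0.0042), with the interquartile range covariate (0.0192) and without control replicates 1 and 2 (0.0251), and Nnt reversed with that covariate (0.0237). Dock2 reversed with quantile normalisation (0.0062) and median centring (0.0038), Mmrn1 with median centring (0.0002), Entpd1 with the covariate (-0.0039), and Crb1 without Dp1Yey replicate 3 (-0.0172) or 5 (-0.0181) and control replicate 2 (-0.0006) or 3 (-0.0042). Crb1 and Mmrn1 lay below background. The cause was not tested. With single arrays left out Cyfip2 ranged from -0.0367 to 0.0042 and Crb1 from -0.0181 to 0.0252. The SD of Nnt within groups was 0.0526 to 0.110 with single arrays left out.

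Over all genes 159 passed, against 308 with median centring, 689 by the rank statistic, 46 with the covariate and 70 to 232 with single arrays left out. With the replicate number as a block 94 passed. The labels do not say whether the numbers pair the mice. Deviations of same-numbered arrays correlated between -0.33 and 0.22, and 1 of 5 Dp1Yey arrays correlated best with its own number. Array-wide correlations cannot settle whether mice were paired. The block gave 0 in place of 1 call in the Wdfy1 list (Tlr3, adjusted p = 0.114). That list also had 0 with the covariate or without control replicates 1 and 2, and 0 to 1 with single arrays left out. The peptidase list had 1 without control replicates 1 and 2, and the peroxide list 1 by the rank statistic. Within 2 Mb, 0 of 10 genes passed limma near Wdfy1 and 0 of 15 near Cyfip2. Within 10 Mb, 3 of 130 passed near Wdfy1, 2 of 118 near Cyfip2 and 1 of 173 near Ide. In that wider window 0 of 42 passed near Nnt and 0 of 137 near Entpd4. Over all genes above background 1.02% passed.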
